A study of Caenorhabditis elegans with 6 samples.

Results

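Isolated regions are stretches bound by the nuclear receptor NHR-25 that stand alone on their chromosome, with no other bound region's midpoint within 20 kb on either side. They were found in the combined peak list of a ChIP-seq series on Caenorhabditis elegans larvae. Peaks that overlapped by at least 1 bp were joined, which turned 6029 peaks into 5720 regions. Of these, 454 regions (7.94%, exact 95% interval 7.25 to 8.67%) met the rule, and the 5266 others had a neighbour within 20 kb. The members were chosen by measured positions, those of the combined list. Distances, the place on the chromosome and the density of combined peaks around the members are therefore descriptions and carry no test.

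Chromatin immunoprecipitation followed by sequencing (ChIP-seq) collects DNA fragments that were crosslinked to a protein, and a peak is a place where such fragments pile up above background. NHR-25 belongs to the NR5 family of nuclear receptors, with FTZ-F1 in Drosophila and SF-1 in mammals, and is known in the worm for roles in the epidermis, in molting and in the gonad. Receptors of this family can bind DNA as single molecules. Bound regions of many worm transcription factors lie close together in gene-rich parts of the genome. The middles of worm autosomes are gene-rich and recombine little, whereas their arms hold more repeats and recombine more. The X chromosome is more even along its length.

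The series has 6 samples, 3 ChIP samples and 3 input samples, all from hermaphrodites at the L2 larval stage. The worms were of strain OP33, an unc119(ed3) background with the transgene wgIs33, in which nhr-25 carries the tags TY1, EGFP and FLAG, together with unc119. They grew at 20 °C with HB101 bacteria as food and were crosslinked in 2% formaldehyde, after which antibodies to GFP pulled down the tagged receptor with its DNA. Peak lists of the 3 ChIP replicates and the combined list were used, and the input samples were not analysed here. The strain is listed as not outcrossed, and the tag reports the transgene's protein, not that of the native gene. Whole larvae were used, so binding in few cells and weak binding in many cells cannot be told apart. Nothing says that the replicates were separate cultures, so p-values measure only the spread between these samples, which may be technical.

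The replicate lists held 30000, 29241 and 30000 peaks. The peaks of a list carry numbers, which were used to rank them, with number 1 taken as the strongest. Strong and weak below refer to this order. The authors' value for a peak, a −log10 of a false discovery rate estimate, has a ceiling that many peaks share (3.96 in the combined list). Among peaks at the ceiling the order cannot be checked against the value. Below it the value did not fall steadily with the number. For members it was 3.48 at combined number 4551, 3.51 at 4863 and 3.29 at 4882. A replicate's first 6029 peaks, as many as the combined list holds, are called its top list. A region counted as supported by a replicate when it overlapped a peak of that list by at least 1 bp. Read counts are not part of the lists, and the depth behind a peak is unknown. All positions are WormBase WS220 coordinates.

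The members stood far from other regions, but most not much farther than the rule asked. The distance to the nearest other midpoint had a median of 30.5 kb, with quartiles at 24.9 and 40.5 kb, against a median of 2.28 kb among the other regions. It was over 30 kb for 241 members, over 50 kb for 62 and over 100 kb for 12. None of the 12 lay on X, which held 73 of the 454 members and 9 of the 62 beyond 50 kb. The 4 members that were the first or last region of a chromosome had a neighbour on one side only. Just inside the rule lay the regions on chromosome IV from 4705242 to 4705681, on V from 12071430 to 12071869 and on X from 410045 to 410322, with a neighbour at 20.2, 20.3 and 20.3 kb. Just outside it were a region on I from 11182415 to 11182659, whose neighbour lay at 19.991 kb, and a pair on V, from 4550497 to 4550761 and from 4570334 to 4570773, which were 19.9 kb apart.

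The isolated regions were supported by the replicates about as often as the crowded ones. In replicate 1, 363 members (80.0%) overlapped a top peak, as did 79.3% of the other regions and 79.4% of all regions. Replicate 2 supported 350 members (77.1%), against 77.1% of the others and 77.1% of all, and replicate 3 supported 351 (77.3%), against 77.2% of the others and 77.2% of all. The members were thus 0.64, 0.032 and 0.12 percentage points above the others, a mean difference of 0.262 ± 0.326 points (SD, n = 3; exact two-sided sign-flip permutation test over replicates, p = 0.25). With 3 replicates this exact test cannot give a smaller p than 0.25 and cannot pass a threshold of 0.05. The difference was smaller than its own spread between replicates, and within bands of equal strength it had the opposite sign, as described below. Combined and replicate lists come from the same ChIP samples, so the level of support was set in part when the list was made, for isolated and crowded regions alike.

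Counted over all replicates, 252 members (55.5%, exact 95% interval 50.8 to 60.1%) were in every top list, against 2915 of the others (55.4%, 54.0 to 56.7%) and 55.4% of all regions. A further 121 members were in 2 top lists, 66 in 1 and 15 in none. The 15 members without support make 3.30% (1.86 to 5.39%), beside 2.43% of the others and 2.5% of all regions. The replicate most often missing from an otherwise supported member was replicate 3, in 48 of the 121 members that lacked a single replicate. Replicates 1 and 2 were missing in 34 and 39 of them. Replicate 3 was also the one most often missing among the other regions, in 462 of 1332, beside 411 and 459. With all deposited replicate peaks in place of the top lists, 437 members (96.3%) were found in every replicate and the remaining 17 in 2 of them, against 95.9% of the others in every replicate and 95.9% of all regions.

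**Figure D1:**
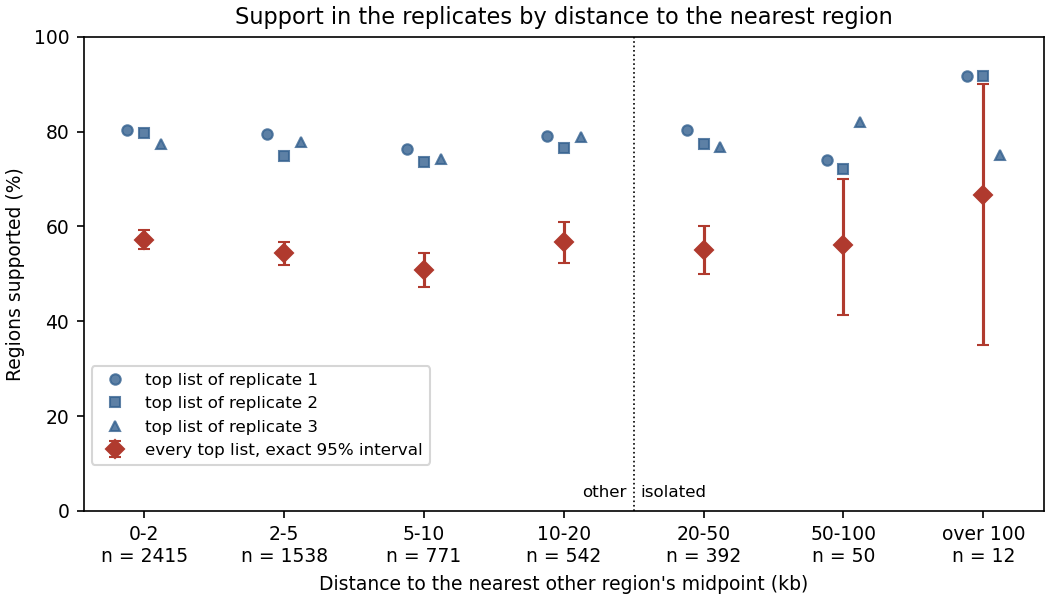
Support of all combined regions by the distance from a region's midpoint to the nearest other midpoint (horizontal axis, kb, with the number of regions n in each class). Blue symbols give the share of regions that overlap the top list of each replicate, and red diamonds the share in every top list with its exact 95% interval. The shares in every top list lie between 50.8 and 66.7%, and the highest, over 100 kb, rests on 12 regions.

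Support showed no steady trend with distance. The share in every top list was 57.2% among regions with a neighbour within 2 kb, 54.3% at 2 to 5 kb, 50.8% at 5 to 10 kb and 56.6% at 10 to 20 kb. It was 55.1% at 20 to 50 kb, 56.0% at 50 to 100 kb and 66.7% (exact 95% interval 34.9 to 90.1%) beyond 100 kb. The lowest class was thus one of neighbours at middle distance, and the intervals of the classes beyond 20 kb cover the values of all the nearer ones.

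Members were spread through the whole range of peak strength. Their best peak had a median number of 2814 in the combined list, with quartiles at 1503 and 4312, against 2956 (quartiles 1447 and 4472) for the other regions. At the ceiling of the authors' value were 360 members (79.3%, exact 95% interval 75.3 to 82.9%), 76.2% of the others and 76.5% of all regions. In the replicates' own numbering the order was not stable. The members' median number was 3012, 3282 and 3114 in replicates 1, 2 and 3, against 3036, 3053 and 3100 among the others, a mean difference of 73.2 ± 137 (SD, n = 3; exact two-sided sign-flip permutation p = 0.75). Among the strongest places the share of isolated regions was close to the 7.94% of all regions. They made up 7 of the first 100 regions, 7.47% of those among the first 500 peaks and 7.49% of those among the first 1000. By bands of 1000 combined numbers up to 6000, the share was highest at 3001 to 4000 (8.88%) and lowest at 5001 to 6000 (6.87%).

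Within bands of 1000 combined numbers from 1001 to 6000, members were a little less often in every top list than other regions. All of the 74 members among the first 1000 combined peaks were in every top list, as were all of the 914 others there, and 97.6% against 98.0% were at 1001 to 2000. The shares were 73.8% of 84 members against 78.9% of 873 others at 2001 to 3000, 33.3% of 84 against 39.1% of 862 at 3001 to 4000, and 9.23% of 65 against 10.4% of 866 at 4001 to 5000. At 5001 to 6000 it was 0 of 62 members (exact 95% interval 0 to 5.78%) and 2.02% of 840 others. All 15 members without any support belonged to this last band, as did 113 of the 128 others without support. The members' share was the lower one in each of the 5 bands from 1001 to 6000, but its interval covered the others' share in each band. Mean support over the single top lists was not lower in all of them. At 4001 to 5000 it was 56.9% for members and 56.2% for the others. The widest gap of these bands was at 5001 to 6000, with 32.3% for members and 39.9% for the others. Weighted by the members in each band, the mean top list support differed by -1.57 points (exact two-sided sign-flip permutation p = 0.25, the smallest possible) and the share in every top list by -2.52 points.

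**Figure D2:**
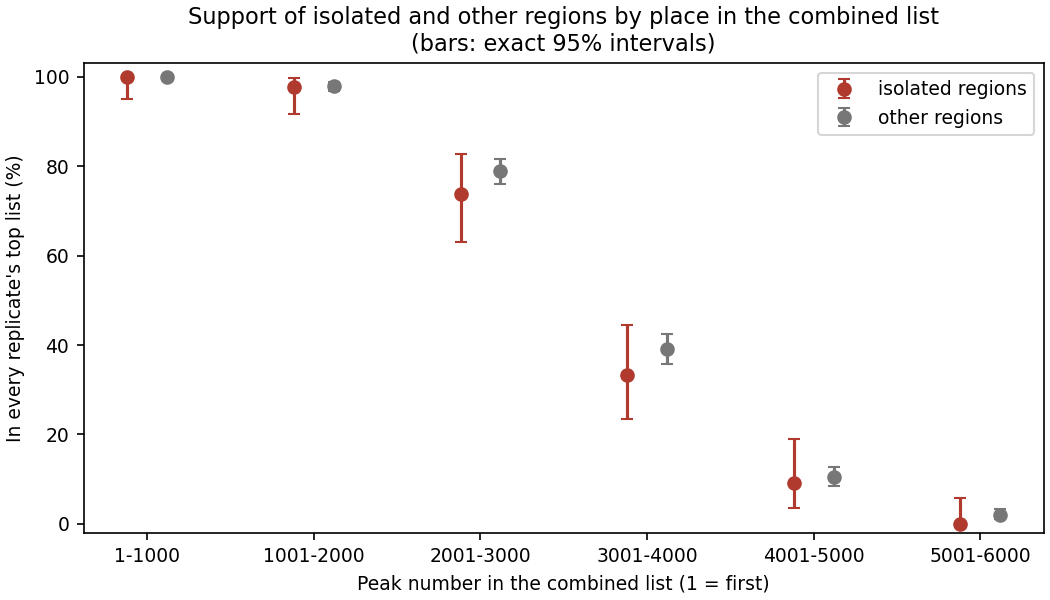
Share of regions in every replicate's top list (vertical axis, %) by peak number in the combined list, in bands of 1000, for isolated (red) and other regions (grey), with exact 95% intervals. Both fall from 100% in the first band to 0 and 2.02% at 5001 to 6000, and the isolated regions lie slightly lower in the bands after the first.

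Single strong members show how well an isolated site could be placed. The strongest member was on X from 2996752 to 2997419, 2 joined peaks of which the better was number 19 in the combined list and number 12, 28 and 31 in replicates 1, 2 and 3. Its nearest neighbours lay at 24.5 and 30.1 kb. The next was on II from 8184964 to 8185329, number 33, with numbers 52, 30 and 29 in the replicates. The member on X from 12362853 to 12363316, number 44 and numbers 20, 51 and 94, had a neighbour at 30.8 kb on its right and none for 174 kb on its left. Replicate midpoints agreed within 27, 16 and 37 bp at these sites.

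The third of the list, on X from 5429280 to 5429755, was number 42 and numbers 67, 31 and 38 in the replicates. Not 1 other peak of any full replicate list had its midpoint within 20 kb of it. It was the only member of the 454 for which this held. Such a stretch is empty even though the full replicate lists reach down to very weak peaks. Its nearest combined neighbours were 38.0 kb away on the right and 90.0 kb on the left.

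The other members among the 10 with the lowest numbers had numbers from 61 to 159. They lay on II from 1320448 to 1320803 and from 5543371 to 5543967, on IV from 1094192 to 1094537 and from 5183695 to 5184022, on X from 16681904 to 16682252, and on I from 13756394 to 13756692. The one at 1320448 stood at the edge of a gap of 499 kb and was number 110, 36 and 76 in the replicates. Around it the full lists held 23, 16 and 11 weaker peaks within 20 kb. A strong isolated site could thus stand among many weak calls or among none. Each of the 10 was in every top list, as were all regions among the first 1000 combined peaks, isolated or not. On X were 4 of the 10, and X also held 29 of the first 100 regions of any kind. The member on II from 5543371, which was 2 joined peaks of 597 bp in all, was less well placed. Its replicate midpoints spanned 196 bp, and with a reciprocal overlap of 50% it was in 0 top lists.

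The 10 most isolated members were all on autosomes and all in the outer parts, away from the chromosome middles. Autosomes held 381 of the 454 members, 231 of them in the outer parts. The loneliest was on II from 1819904 to 1820343, with its neighbours at 499 and 400 kb. It was number 2738 in the combined list and 2779 and 1421 in replicates 1 and 2, but 18541 in replicate 3, outside the top list there. The member next to it on II, from 2219866 to 2220305, was number 4006 and in the top list of replicate 2 only, with numbers 6109, 4258 and 6858. Another on this arm, from 2442242 to 2442681, was in every top list. Chromosome II thus carried 3 members in a row whose nearest neighbours lay at 400, 222 and 123 kb.

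Of the others of these 10, the members on IV from 16656260 to 16656561 and on II from 12459466 to 12459716 were strong, with combined numbers 301 and 687. The first had numbers 252, 311 and 453 in the replicates and the second 915, 1481 and 384. The members on IV from 16024036 to 16024475, on V from 16213318 to 16213757 and from 15880744 to 15881183, and on I from 13951610 to 13952049 had combined numbers from 2127 to 2602 and were in every top list. The one on IV from 14219637 to 14220076, number 3340, missed the top list of replicate 3 with number 8490. All 10 stood at the ceiling of the authors' value, as did 79.3% of all members and 76.5% of all regions. In every top list were 7 of them, beside 55.5% of all members and 55.4% of all regions.

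At the weak end, the best numbered members without support were on V from 3094392 to 3094831, on II from 11928734 to 11929173 and from 542309 to 542748, on III from 11342902 to 11343341 and on V from 13129964 to 13130403. Their combined numbers ran from 5006 to 5222. The first, 98.6 kb from its nearest neighbour, was number 8659, 6278 and 9665 in the replicates. These are places that the full lists hold but the top lists do not, except that the last had no peak in replicate 1 at all. The weakest members that were still in every top list had combined numbers from 4364 to 4837. They lay on II from 15089329 to 15089768, on IV from 2497648 to 2498087, on X from 8646241 to 8646680, on V from 1977555 to 1977994 and on I from 3070204 to 3070341.

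Replicates placed and ranked isolated regions about as alike as crowded ones. Across the 437 members found in all replicates, the 3 midpoints spanned a median of 61 bp, with quartiles at 33 and 108 bp, against 77 bp (40 and 145 bp) for the others. More of the others were joined from several peaks, 5.36% against 2.42% of the members. Spearman's rho of the peak numbers between replicates averaged 0.669 across members (0.639 to 0.714 over 3 pairs) and 0.661 across the others. Regions share their libraries and are not replicates, so rho is a description. The width says little, since 440 bp was the width of 66.1% of members and 64.2% of the others.

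On the autosomes isolated regions lay mostly in the outer parts, where combined regions are sparse. Of 381 autosomal members, 150 were in the central 50% of the chromosome (39.4%, exact 95% interval 34.4 to 44.5%), against 66.4% of the other autosomal regions. The share was lowest on III with 26.8% of 71 members, followed by 35.4% of 79 on IV, 36.9% of 65 on II and 42.5% of 80 on I. It was highest on V with 52.3% of 86. On X it was 46.6% of 73 members against 53.7% of the other regions. A sparse part leaves more regions alone, so this follows in part from the rule. Applied to each replicate's own top list, the same rule put 41.0 ± 0.752% (SD, n = 3) of isolated autosomal regions in the central parts, against 67.0 ± 0.871% of the others. These lists come from the same ChIP samples and the rule was the same, so this is a description and no independent support.

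**Figure D3:**
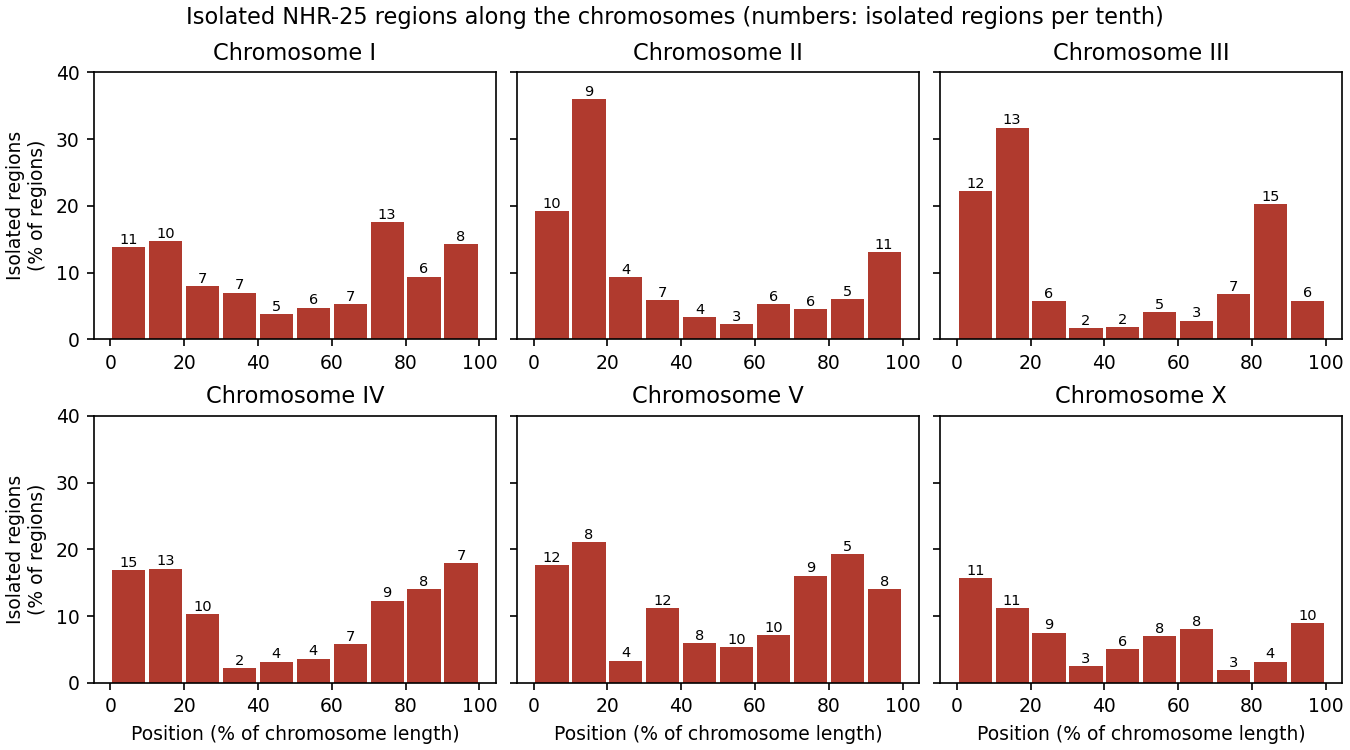
Share of combined regions that are isolated (vertical axis, %) in bins of 10% of the length of the 6 chromosomes (horizontal axis), with the number of isolated regions above each bar. The highest bars are 36.0% on II and 31.7% on III, both between 10 and 20% of the length, and the lowest is 1.64% on III.

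The share of regions that stood alone varied along the chromosomes, by more than 10 times on II and III. On II, 9 of 25 regions (36.0%) between 10 and 20% of the length were isolated, and 3 of 131 (2.29%) between 50 and 60%. On III, 13 of 41 regions (31.7%) were isolated between 10 and 20% and 2 of 122 (1.64%) between 30 and 40%. Left and right arms differed on some chromosomes. Between 80 and 90% of the length of II 6.02% of the regions were isolated, where the mirror image on the left had 36.0%. Over whole chromosomes the share was nearly even, from 7.18% on II and 7.51% on III to 8.67% on I, 8.98% on IV and 9.21% on V, with X lowest at 6.45% (exact 95% interval 5.09 to 8.04%). In the autosomal outer parts it was 14.1%, and in the centres 5.09%. X had 7.37% in its outer parts and 5.64% in its centre.

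Isolated regions on X were stronger than the other regions of X. The 73 members there had a median combined number of 1874, against 2930 for the other regions of X, and 65 of them (89.0%) stood at the ceiling, against 76.3% of the others. In every top list were 52 (71.2%, exact 95% interval 59.4 to 81.2%), against 584 of 1059 others (55.1%). On X were 0 of the 15 members without any support, beside 73 of all 454 members. Only 3.30% of all members lacked support, and 2.5% of all regions, so this count says little about X. On single autosomes the members' share in every top list ran from 43.8% on I through 50.7% on III, 53.5% on V and 55.4% on II to 59.5% on IV. The interval of X overlaps those of II, III, IV and V. X was singled out after the values of all chromosomes had been seen.

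Each replicate showed members of X ahead of its other regions. Their median number was 1795, 1894 and 2395 in replicates 1, 2 and 3, against 2986, 2929 and 3024 for the other regions, a mean difference of -952 ± 290 places (SD, n = 3; exact two-sided sign-flip permutation p = 0.25, the smallest possible). Top list support on X was 86.8 ± 5.70% for members and 77.8 ± 0.433% for the others. The members stood 7.03, 15.8 and 4.0 points higher in the 3 replicates, a mean of 8.95 ± 6.13 points (p = 0.25, exact permutation). The sizes differed almost 4 times between replicates 2 and 3, although the sign did not. On IV the differences were 7.05, 0.69 and 5.34 points, a mean of 4.36 ± 3.29, so X was not the only chromosome with this sign in every replicate. When the rule was applied to each replicate's own top list, the isolated regions of X had median numbers of 1977, 2335 and 2472, against 2799, 2833 and 2843 for the others on X.

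Members in the autosomal centres had later numbers and less support than the other regions of the centres. The 150 members there had a median combined number of 3340, against 2951 for the other regions of the centres, and 46.7% (exact 95% interval 38.5 to 55.0%) were in every top list, against 55.5%. Their top list support minus that of the others was -2.34, -8.16 and -2.57 points in replicates 1, 2 and 3. Among the centres of single autosomes, only that of IV had a mean above 0, of 1.42 points. Over whole chromosomes, I and III were also below 0 in every replicate, with means of -5.18 and -4.03 points. The 231 members in the outer parts had a median number of 2779, against 2987, and 56.3% (49.6 to 62.8%) were in every top list, against 55.2%. There the replicates differed by 0.41, 1.06 and 0.23 points. With each replicate's own rule the centres did not repeat this, since isolated central regions had median numbers of 3112, 3284 and 2740 against 2918, 2908 and 2912 for the others, so they were the weaker ones in replicates 1 and 2 and the stronger ones in replicate 3.

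**Figure D4:**
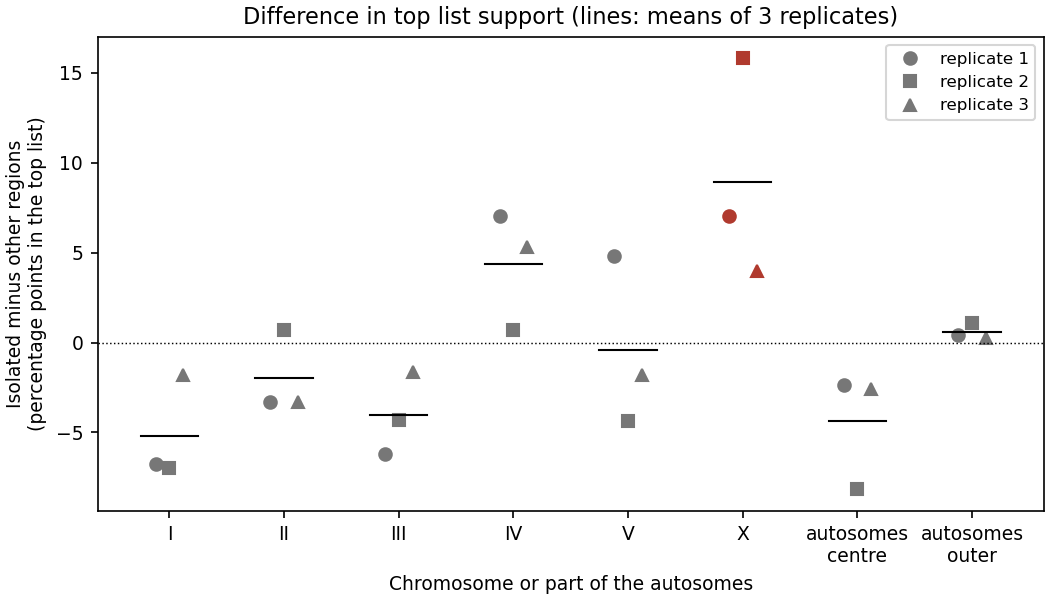
Top list support of isolated regions minus that of other regions (vertical axis, percentage points) on each chromosome and in the central and outer parts of the autosomes, with a symbol for each replicate and a line for the mean. On X and IV all replicates lie above 0, from 4.0 to 15.8 points on X. On I, on III and in the autosomal centres all lie below it, from -8.16 to -2.34 points in the centres.

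An isolated region in the combined list was not always alone in the replicates. Of the members that a replicate supported, 259 of 363 (71.3%), 245 of 350 (70.0%) and 249 of 351 (70.9%) were also isolated in that replicate's own top list (mean 70.8 ± 0.692%, SD, n = 3). Those lists had 463, 497 and 488 isolated regions, 8.19, 8.84 and 8.72% of their regions. Within 20 kb of 237 members (52.2%) lay a further top peak of at least 1 replicate that the combined list does not have. For 68 members (15.0%) such peaks of at least 2 replicates overlapped, and for 15 members (3.30%) those of all 3 did. Around the rest of the 237 members each such neighbour was found in a single replicate.

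Weaker replicate peaks were also fewer around members, but not evenly so. The full lists held 9.31, 8.69 and 9.22 further peaks within 20 kb of a member on average in replicates 1, 2 and 3 (mean 9.07 ± 0.339, SD, n = 3), against 17.7 ± 0.103 around the other regions. The rule removes combined peaks from this window. Without the peaks that overlap a combined peak, the number was 11.9 ± 0.170 around the others and the same 9.07 around members. This is a difference of -2.82 ± 0.380 peaks (exact two-sided sign-flip permutation p = 0.25, the smallest possible; lower in 3 of 3 replicates). The list that chose the members comes from the same ChIP samples as these lists. The choice can therefore carry over into every replicate, and their agreement is no independent support. Members of the autosomal outer parts had 10.6 ± 0.936 such neighbours, those of the centres 7.69 ± 0.303 and those of X 6.98 ± 0.390.

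**Figure D5:**
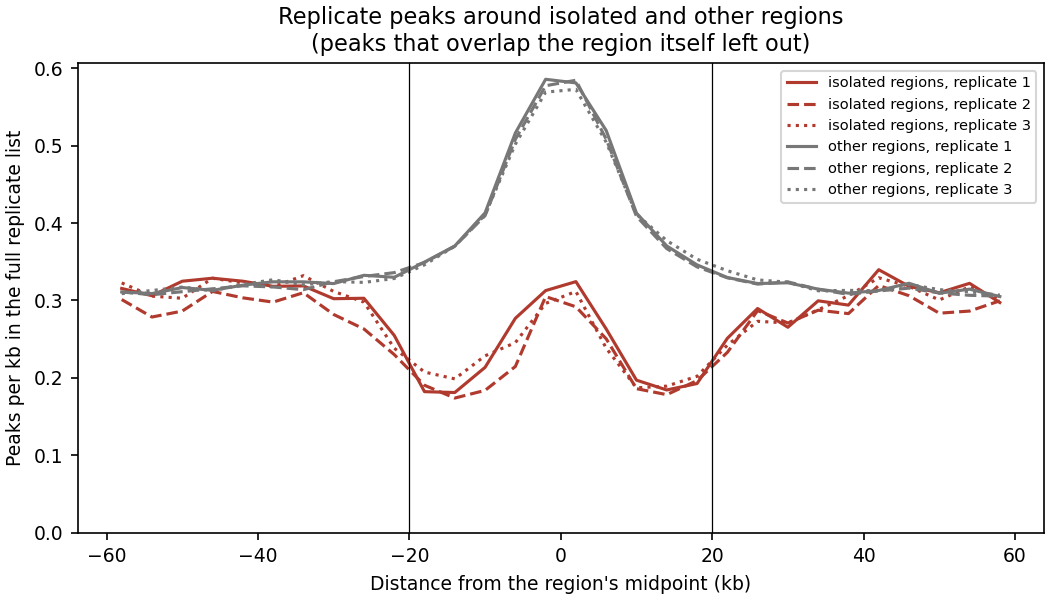
Peaks per kb in the full list of each replicate (vertical axis) by distance from the region's midpoint (horizontal axis, kb, bins of 4 kb), around isolated (red) and other regions (grey), without peaks that overlap the region itself. Vertical lines mark 20 kb. Around isolated regions the lines dip to both sides of a small central rise, with 0.278 peaks per kb within 8 kb and 0.193 from there to 20 kb.

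Close to the midpoint the replicate peaks were denser than farther out, around members and other regions alike. Within 8 kb of a member the full lists had 0.294, 0.266 and 0.273 peaks per kb in replicates 1, 2 and 3, and between 8 and 20 kb they had 0.192, 0.185 and 0.202. The inner density was 1.53, 1.44 and 1.35 times the outer one, a mean difference of 0.0846 ± 0.0162 peaks per kb (SD, n = 3; exact two-sided sign-flip permutation p = 0.25, the smallest possible). Around the other regions, where peaks of combined neighbours are included, the densities were 0.544 ± 0.0068 and 0.377 ± 0.00178 peaks per kb. Their ratios of 1.46, 1.45 and 1.42 averaged 1.44, as did those of the members. These ratios are not like for like, since by rule the others have combined neighbours within 20 kb and members have none. A profile of the others without the peaks of combined neighbours was not made. Beyond 24 kb and up to 60 kb the density around members was 0.303 ± 0.00986 peaks per kb, close to the 0.316 ± 0.00124 around other regions. The rise was present around strong and weak members alike, with 0.281 and 0.201 peaks per kb within 8 kb and beyond it for the 242 members numbered up to 3000, and 0.274 and 0.183 for the 212 later ones. It was 1.77 times in the autosomal centres, 1.61 times on X and 1.28 times in the autosomal outer parts. The limit of 8 kb was chosen after the profile had been seen.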

How the data were processed

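Per the file headers, the peaks were mapped to WormBase WS220, and the source field names the SPP peak caller and IDR, the irreproducible discovery rate. Not given in the sources used here are the aligner, filters, controls, thresholds and the way the combined list was made. The authors deposited a −log10 of a false discovery rate estimate for each peak; the unit was read from the values. The depth per sample is unknown, since the lists give no counts of reads. The members and the lists were chosen with earlier results of these data known.

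Overlapping combined peaks were joined into regions, distances were taken between midpoints, and the lowest peak number stood for a region. The length of a chromosome was the last base any deposited peak reached. Samples were grouped by their titles. Intervals of shares are exact Clopper-Pearson 95% intervals; they treat regions as independent and cover counting error only. Replicates were compared by exact sign-flip permutation tests over 3 replicates, the only tests made. Regions were named by rule: the 10 lowest combined numbers, the 10 largest distances, 3 on each side of the limit, and 5 each of the best numbered members in no top list and of the latest in every top list. The member with no weak neighbour was singled out after its values were seen, although the rule also names it. Gene positions were at hand for assembly WBcel235 only, so no gene, promoter or sequence was assigned to a region. Python 3.11.15, numpy 2.4.6, pandas 2.3.3, scipy 1.17.1 and matplotlib 3.10.9 were used, and the scripts were tested on simulated lists. Alternatives covered the overlap, the length of the lists, the distance, the chromosomes, the centre and single replicates.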

Additional observations from a re-analysis of the deposited data

Results flagged for a closer look

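The difference in top list support between isolated and other regions had opposite signs in different parts of the genome, in every replicate. It averaged 8.95 points on X and -1.40 points on the autosomes, and replicates 1, 2 and 3 differed by 7.70, 18.8 and 4.57 points between them (mean 10.4 ± 7.47, SD, n = 3; exact two-sided sign-flip permutation p = 0.25, the smallest possible). The same held between the autosomal centres, at -4.36 points, and both X and the autosomal outer parts, at 0.569 points; these differences were not tested. The autosomes were not alike, since members of IV were above the other regions in every replicate, with a mean of 4.36 points. Members of I and III were below the other regions in every replicate, with means of -5.18 and -4.03 points. Several of the splits were looked at after the values were known, and the replicate lists come from the same samples as the combined list.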

How the results depend on the processing

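The difference in mean top list support ran from -1.57 to 0.378 points, except for 8.95 points on X only, and its sign was not stable. From 0.262 points it turned to -0.635 with a reciprocal overlap of 50%, -0.492 with the first 3000 peaks of each replicate, -1.57 within bands of 1000 combined numbers, -1.16 with a 30 kb rule, -0.0256 with the first 3000 combined peaks, -1.40 on the autosomes only and -0.224 without members that had a neighbour in 2 or more top lists; the cause was not tested. Leaving out a replicate gave 0.0758 to 0.378. The difference in the share in every top list was 0.151 points, from -0.164 to 1.95 without a replicate, and moved most on X only, to 16.1. Its sign was not stable, with -2.91 on the autosomes only, -2.52 within bands of combined numbers and -1.49 with a 30 kb rule. It was -0.692 without members that had a neighbour in 2 or more top lists, and slightly negative with either limit of 3000 peaks. With a reciprocal overlap of 50%, all deposited peaks and a 10 kb rule it was 0.616, 0.395 and 0.917. The difference in the autosomal central share, -27.1 points, was -21.5 with a 10 kb rule, -20.7 with the first 3000 combined peaks, -21.7 for the third in the middle of each chromosome and -33.2 without members that had such neighbours. The difference in median combined number, -142, was -1 with a 30 kb rule, 31.5 with the first 3000 combined peaks and -1056 on X. Members isolated in a replicate's own list made 95.1% with its first 3000 peaks, 69.6% with a reciprocal overlap of 50% and 70.5 to 71.1% without a replicate. The difference in all further full list peaks within 20 kb, -8.67 peaks, was -8.78 to -8.49 without a replicate. It was -2.82 with peaks that overlap a combined peak left out. X only, the members without neighbours and the peaks outside combined ones were chosen after seeing the data. Among 36 named regions, 4 changed their number of supporting replicates with a reciprocal overlap of 50%, 13 with the first 3000 peaks and 11 with all deposited peaks. No paired analysis was possible because each replicate number has 1 analysed sample, its ChIP peak list. The ceiling and the unknown depth limit any ranking.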
